A study of Mus musculus with 36 samples.

Results

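Promoter peaks are the stretches of accessible chromatin that lie at the transcription starts of protein-coding genes, here in cultured mouse cortical neurons. A peak counted as one when any base of it lay between 1000 bp before and 100 bp after a protein-coding transcript start in the GENCODE M21 basic annotation of mm10, and when its count averaged at least 10 over the 18 ATAC-seq libraries. This gave 12541 promoter peaks among 56383 peaks that passed the same count filter (22.2%) and 58177 peaks in all. Another 67 peaks overlapped such a window and fell below the filter, where the nearest values on either side were 10.0 and 9.83 reads. The peaks covered the windows of 12583 genes, which is 57.6% of the 21864 protein-coding genes of the annotation.

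A promoter is the DNA around a gene's start on which general transcription factors and RNA polymerase assemble, and it is usually kept free of nucleosomes in cells that can use the gene. In mammals most promoters lie in CpG islands, stretches of DNA that have kept their CpG dinucleotides and tend to be open in many cell types, while CpG-poor promoters are more often opened by tissue-specific or signal-dependent factors. Among such factors is AP-1, the dimers of Fos and Jun family proteins that stimulated neurons make within the first hour. ATAC-seq reads accessibility through the insertion of a transposase into DNA that is not wrapped or covered.

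The neurons came from the cortex of CD-1 mouse embryos at embryonic day 15 and were used on day 7 in culture. Every group spent its first 2 h without activity, in 100 µM AP-5, which blocks NMDA receptors, together with 1 µM TTX, which blocks voltage-gated sodium channels. Stimulated groups then received BDNF, the ligand of the TrkB receptor, at 10 ng/ml, or 55 mM KCl, a concentration of potassium that depolarises neurons, for 1, 6 or 10 h, and the controls of each time stayed in both blockers for 3, 8 or 12 h in all. ATAC-seq and RNA-seq each had 2 samples in each of these 9 groups, and the 6 controls of the 3 times formed 1 level in the tests. The letters A and B only name the 2 ATAC libraries of a group in the order of the table. Cortices of all embryos were dissociated before culture, and the study calls the samples biological replicates and states that ATAC-seq and RNA-seq used the same samples. No source names the culture of each one, so the p-values measure the spread between these samples.

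The deposited ATAC values are whole numbers and were taken as raw read counts. On that reading ATAC libraries held 1.24 to 6.24 M reads in peaks, with KCl 6 h library B the shallowest, and log counts of promoter peaks correlated at 0.935 to 0.972 within the 9 groups and at 0.9 to 0.97 between libraries of different groups. RNA libraries held 8.51 to 36.7 M reads. All 14 neuronal marker genes were measured, among them Tubb3 and Map2, and their summed normalised counts were 71338 to 80033 in controls, 66741 to 78259 with BDNF and 64902 to 78528 with KCl. Markers of glia and other cells were present too, with 17 of 19 averaging at least 10 and sums of 22264 to 27898, 21764 to 26143 and 22334 to 27480 in the same order. The astrocyte transporter gene Slc1a3 reached 11230 in 1 library, while the endothelial marker Cldn5 was at 0 in 10 samples and the microglial marker P2ry12 had a control mean of 5.22. The part of these cells in the results below was not tested, and in such bulk samples fewer cells of a type and less open chromatin or RNA per cell cannot be told apart.

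Promoter peaks differed in kind from the other peaks. Their median width was 772 bp (105 to 3018 bp) against 323 bp outside promoters, and their median count was 117 reads against 24.9. The median GC content of the central 300 bp was 67.0%, against 46.0% outside. The ratio of observed to expected CpG was 0.848 against 0.227. Windows with at least 50% GC and a ratio of at least 0.6 are called CpG-rich here, and they made up 82.2% of promoter peaks (10311) and 5.18% of the others. Promoter peaks sat close to the start, with a median centre 16 bp downstream of it and quartiles at -63 and 106 bp. Of them, 1184 served the windows of at least 2 genes, 1101 of these with genes on both strands, and 1037 genes had at least 2 promoter peaks, with Pde4d at the top with 6.

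Many of the promoters that opened most held the AP-1 letters TGAGTCA on either strand (TGACTCA when read on the other strand). They are shown here because 51 of the 102 promoter peaks that BDNF opened at least 2-fold at 1 h held them (50.0%), while 2.54% of all promoter windows of the same 300 bp did (318 of 12541). Each line gives the gene, the mm10 position and strand, and the bases around the first match in the direction of the gene, with the AP-1 letters in capitals. Stretches within annotated exons are kept to a few bases on each side. Sequences come from the GRCm38 reference of RefSeq.
Mpp4, chr1:59163060-59163082, minus strand: atgggaaaTGACTCAgcaggcgg
Pate1, chr9:35687304-35687326, minus strand: ttgaagggTGAGTCAtgacaatc
Serpinb8, chr1:107589975-107589997, plus strand: gggaagtgTGAGTCAcagagtgt
Gm11146, chr16:77602685-77602771, minus strand: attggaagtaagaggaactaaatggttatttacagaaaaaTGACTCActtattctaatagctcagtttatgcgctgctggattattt
Themis3, chr17:66595328-66595414, minus strand: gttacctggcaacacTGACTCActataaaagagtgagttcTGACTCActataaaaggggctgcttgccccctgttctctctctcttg
Pla2g7, chr17:43567781-43567867, plus strand: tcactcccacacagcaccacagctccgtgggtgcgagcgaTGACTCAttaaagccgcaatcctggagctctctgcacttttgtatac
Dab2ip, chr2:35557970-35558056, plus strand: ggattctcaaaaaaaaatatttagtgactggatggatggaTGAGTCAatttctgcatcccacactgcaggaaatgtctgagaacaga
Cgref1, chr5:30945614-30945700, minus strand: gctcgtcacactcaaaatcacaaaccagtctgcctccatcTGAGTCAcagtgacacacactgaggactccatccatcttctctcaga
Atp2b2, chr6:113934886-113934972, minus strand: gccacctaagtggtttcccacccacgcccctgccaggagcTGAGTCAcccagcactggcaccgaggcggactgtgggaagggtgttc
Toporsl, chr4:52606941-52607027, plus strand: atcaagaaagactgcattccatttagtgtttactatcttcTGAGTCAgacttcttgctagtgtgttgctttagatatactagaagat

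A second set is shown for the opposite change. Promoters that closed with KCl held the YY1 letters AAGATGGC more often than all promoter windows, as given below, and examples from the genes named among them that carry these letters follow, again in capitals and in the direction of the gene. YY1 is a zinc-finger factor that binds close to the start of many housekeeping genes. The last line gives the Nr4a1 promoter that opened with KCl, which held a pair of matches to the MEF2 motif (capitals), the site of a factor family that calcium signals control in neurons.
Trim8, chr19:46501161-46501248, plus strand: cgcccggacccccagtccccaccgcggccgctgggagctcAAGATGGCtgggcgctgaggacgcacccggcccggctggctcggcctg
Psmb6, chr11:70525386-70525409, plus strand: agcagaggAAGATGGCggccgcct
Ndufa3, chr7:3617387-3617410, plus strand: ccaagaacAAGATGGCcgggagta
Nr4a1, chr15:101266507-101266596, plus strand: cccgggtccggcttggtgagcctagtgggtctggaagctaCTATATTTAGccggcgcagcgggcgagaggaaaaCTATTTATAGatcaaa

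The first question was whether promoters kept their part of the accessible chromatin after stimulation. The share of a library's reads that fell in promoter peaks, which needs no scaling between libraries, was lower in every stimulated library than in every control library. In controls it was 56.8% and 56.5% at 1 h, 57.2% and 56.8% at 6 h, then 56.6% and 56.1% at 10 h. With BDNF it was 53.8% and 53.3% at 1 h, 54.7% and 55.0% at 6 h, then 52.7% and 53.8% at 10 h. With KCl it was 53.6% and 53.8% at 1 h, 52.4% and 51.8% at 6 h, then 51.8% and 50.7% at 10 h. The highest stimulated library (55.0%) lay below the lowest control (56.1%), and the 4 late KCl libraries held the lowest shares of all 18. The mean with BDNF was 53.9% ± 0.841 (SD, n = 6) against 56.7% ± 0.389 (SD, n = 6) in controls, 2.79 percentage points lower (exact two-sided permutation test, p = 0.00216, the smallest p that 6 against 6 allow, Benjamini-Hochberg adjusted p = 0.00325 over 3 tests). KCl was lower by 4.34 points (52.3% ± 1.19, SD, n = 6, same exact p). BDNF stood 1.56 points above KCl (exact permutation p = 0.0281, adjusted p = 0.0281), and this call was lost without any one of BDNF 6 h A (1.4), BDNF 6 h B (1.34), KCl 6 h A (1.56), KCl 6 h B (1.46), KCl 10 h A (1.45) or KCl 10 h B (1.22). At a single time an exact permutation test of 2 libraries against 6 cannot go below p = 0.0714, so none was made. A lower share does not say whether promoters lost reads or other peaks gained them.

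**Figure D1:**
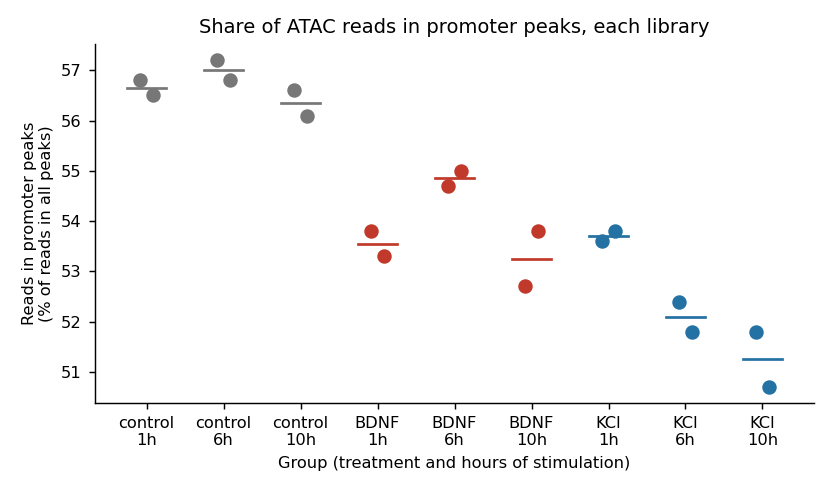
Share of each ATAC library's reads in peaks that fell in promoter peaks (y axis, percent) in the 9 groups (x axis), with 1 point per library and a line at the mean of the 2. The 6 control libraries lie between 56.1 and 57.2%, above all 12 stimulated libraries, and KCl 10 h is lowest at 50.7 and 51.8%.

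The second question was which promoter peaks changed. Calls were made at an adjusted p below 0.1 (edgeR, adjusted over all peaks). Under the scaling used here, 9601 of 12541 (76.6%) were called in none of the 6 comparisons with controls. At some time 1237 were called with BDNF (9.86%) and 2006 with KCl (16%). The same count was not made over all peaks, and a peak that was not called may still have changed. A promoter peak is gained here when it was called above the controls, and closing when it was called below them. At BDNF 1 h, 438 promoter peaks were gained (3.49%, where 12.5% of all peaks were) and 349 were closing (2.78%, all peaks 4.78%). At BDNF 6 h, 142 were gained (1.13%, all peaks 8.88%) and 110 closing (0.877%, all peaks 1.75%). At BDNF 10 h, 197 were gained (1.57%, all peaks 7.46%) and 206 closing (1.64%, all peaks 1.9%). With BDNF, promoters were thus called less often than peaks at large in both directions at each time. KCl differed from this picture at 1 h, where 692 promoter peaks were gained (5.52%, all peaks 5.29%) and 484 were closing (3.86%, all peaks 3.05%). At KCl 6 h, 295 were gained (2.35%, all peaks 5.44%) and 399 closing (3.18%, all peaks 2.06%). At KCl 10 h, 216 were gained (1.72%, all peaks 5.91%) and 399 closing (3.18%, all peaks 1.96%). Promoters made up 34.4% and 36.0% of all closing peaks at KCl 6 h and 10 h, but 2.84% of the gained peaks at BDNF 6 h. Called promoter peaks had a median size of change of 0.411 to 0.635 on the log2 scale over the 12 sets, against 1.09 to 1.68 for called peaks elsewhere. Smaller changes can be called at peaks of higher count, and the median count was 117 reads at promoters and 24.9 elsewhere. The sizes therefore describe called peaks and do not compare promoters with other peaks as a whole. Of the 438 promoter gains at BDNF 1 h, 102 reached 2-fold.

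The direction of these calls depended on how libraries were scaled. LOESS offsets, the scaling that the study's methods describe, were used above, and with them 55.7%, 56.3% and 48.9% of called promoter peaks were gained at BDNF 1, 6 and 10 h and 58.8%, 42.5% and 35.1% at KCl 1, 6 and 10 h. With TMM factors the same shares were 27%, 41.1% and 18.8% for BDNF and 29.3%, 9.32% and 4.56% for KCl. TMM factors computed from the peaks outside promoters left 206 gained and 2325 closing promoter peaks at BDNF 1 h and 48 gained and 5381 closing at KCl 10 h, and moved the median log2 fold change of all peaks to between -0.155 and -0.056, from between -0.048 and 0.015 with LOESS. The median promoter peak then stood at -0.363 at KCl 10 h, where all peaks were at -0.147. How many promoters closed is therefore not settled by these counts. The large gains named below moved less, with 3.23 and 3.22 at Mpp4 and 3.51 and 3.57 at Gm11146 at BDNF 1 h and 3.60 and 3.75 at Pate1 at BDNF 10 h with LOESS and TMM.

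**Figure D2:**
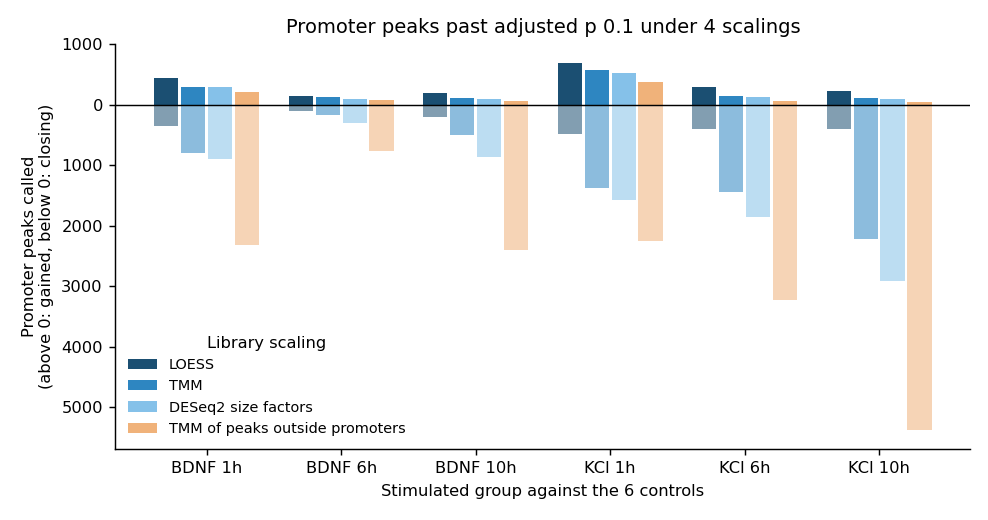
Number of promoter peaks called at an adjusted p below 0.1 (y axis, gained above 0 and closing below 0) for each stimulated group against the 6 controls (x axis) under 4 scalings of the libraries (bars). With LOESS offsets 216 peaks are gained and 399 closing at KCl 10 h, while TMM of the peaks outside promoters gives 48 and 5381.

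Counts also moved with single libraries. Without BDNF 1 h library A or B, 202 and 209 promoter peaks were gained and 125 and 142 closing. At BDNF 6 h, 57 and 77 were gained without A and without B, and 30 were closing without A. At BDNF 10 h, 67 were gained and 87 closing without A. At KCl 1 h, 239 and 179 were gained and 127 and 100 closing without A and without B, at KCl 6 h 146 and 88 were gained and 196 and 144 closing, and at KCl 10 h 75 and 85 were gained and 158 and 122 closing. Leaving out a control library moved no count by over 1.5 times.

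Several of the promoters that opened most with BDNF belonged to genes below the RNA filter. Values below are read counts scaled by the LOESS offsets, and the peaks were picked for the size of their change with both libraries beyond all 6 controls, so that their values describe them. Mpp4, which encodes a scaffold protein of photoreceptor synapses, had a promoter peak at chr1:59162879-59163352, just downstream of its start. The 6 controls held 8.0 to 16 scaled counts (median 11), the BDNF libraries 101 and 109 at 1 h, 65.7 and 99.1 at 6 h, then 63.5 and 86.1 at 10 h. All 6 BDNF libraries were over 3 times the highest control, and the log2 fold changes were 3.23 (SE 0.27, adjusted p = 4.521e-20), 2.89 (SE 0.28) and 2.75 (SE 0.3) by edgeR. With KCl the values were 28.6 and 14.2 at 1 h, 45.4 and 31.5 at 6 h, then 22.7 and 17.8 at 10 h, of which the 6 h group was called (1.86, adjusted p = 4.451e-05, edgeR), though not without KCl 6 h library A. BDNF exceeded KCl at this peak by 2.35 at 1 h (SE 0.33, adjusted p = 4.605e-08, edgeR).

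Pate1, a gene named for its expression in prostate and testis, had a peak at chr9:35687089-35687400 over its start. Controls held 1.2 to 7.14 (median 4.28), the BDNF libraries 39.1 and 39.4, 45.2 and 32.6, and 60.5 and 49.9 at 1, 6 and 10 h. This was the promoter with the largest gain at BDNF 10 h (3.60, SE 0.41, adjusted p = 2.308e-12, edgeR), and its values were highest at that time. KCl libraries held 6.89 and 5.63, 14.4 and 10.2, and 19.4 and 18.2, so that the peak overlapped the controls at KCl 1 h and lay above all of them at 6 and 10 h. The deposited RNA of Pate1 averaged 0.445 normalised counts in controls, and the gene did not enter the RNA test.

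The largest gain at BDNF 1 h was at Gm11146, 631 bp upstream of the start (chr16:77602599-77602852). Controls held 1.46 to 8.15 (median 2.32), and the BDNF libraries 50.0 and 33.8, 28.9 and 35.6, and 20.7 and 45.1. With KCl the libraries held 9.47 and 25.9, 17.4 and 25.4, and 23.5 and 29.8, all above the controls. The log2 fold change was 3.51 at BDNF 1 h (SE 0.42, adjusted p = 7.087e-12, edgeR) and 2.88 at KCl 10 h (SE 0.46, adjusted p = 1.868e-06, edgeR), and its call at KCl 1 h was lost without KCl 1 h library B. Gm11146 RNA was listed at 0 in every control.

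Pla2g7, which encodes the secreted platelet-activating factor acetylhydrolase, opened 467 bp upstream of its start (chr17:43567694-43567911). Controls held 2.97 to 8.05 (median 4.3) and BDNF 1 h 69.4 and 38.0, and the gain had shrunk to 17.9 and 19.6 at 6 h and 18.6 and 24.6 at 10 h. The log2 fold changes were 3.37 (SE 0.41, adjusted p = 1.972e-11, edgeR), 1.87 and 2.08, and the last was lost without BDNF 10 h library B. Dab2ip, a GTPase-activating protein for Ras, opened in the same way 212 bp upstream of a start (chr2:35557922-35558187), from 1.31 to 6.2 in controls to 43.8 and 35.4 at BDNF 1 h and 11.8 and 19.3 at 10 h (lost without BDNF 10 h B), while its KCl libraries spanned 2.83 to 12.8 and were called at no time. Themis3 rose from 2.44 to 6.95 in controls to 33.4 and 58.0 at BDNF 1 h (3.29, SE 0.41, adjusted p = 3.598e-11, edgeR) and to 29.2 and 10.1 at KCl 6 h (2.25, lost without KCl 6 h A).

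Several promoters opened later or alike with both stimuli. Toporsl had its largest KCl gains at 6 and 10 h, with 35.8 and 45.9 and 29.8 and 46.3 scaled counts against 0.97 to 19.6 in controls, where the median was 5.16 and 1 library stood apart. BDNF gave 36.6 and 21.2, 38.6 and 39.9, and 27.3 and 21.5, and the log2 fold change was 2.55 at KCl 6 h (SE 0.42, adjusted p = 1.152e-05) and 2.53 at BDNF 6 h (SE 0.39, adjusted p = 1.083e-07, edgeR). Olfr957, an olfactory receptor gene, rose from 1.01 to 4.5 in controls to 21.1 and 14.2 at KCl 10 h (2.79, SE 0.56, adjusted p = 0.0002321, edgeR) and to 13.9 and 17.5 at BDNF 10 h (2.63, SE 0.59). With BDNF it already held 17.2 and 17.5 at 1 h (2.77, SE 0.54), while KCl 1 h was not called (10.2 and 5.37). Ebp, a sterol isomerase of cholesterol synthesis, rose at its start from 1.53 to 9.03 in controls to 23.9 and 19.9 at BDNF 1 h (2.02, SE 0.48) and to 20.7 and 21.5 at KCl 1 h (1.97, SE 0.47, adjusted p = 0.004787, edgeR). The BDNF minus KCl difference at Ebp at 1 h was 0.05 (SE 0.52).

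**Figure D3:**
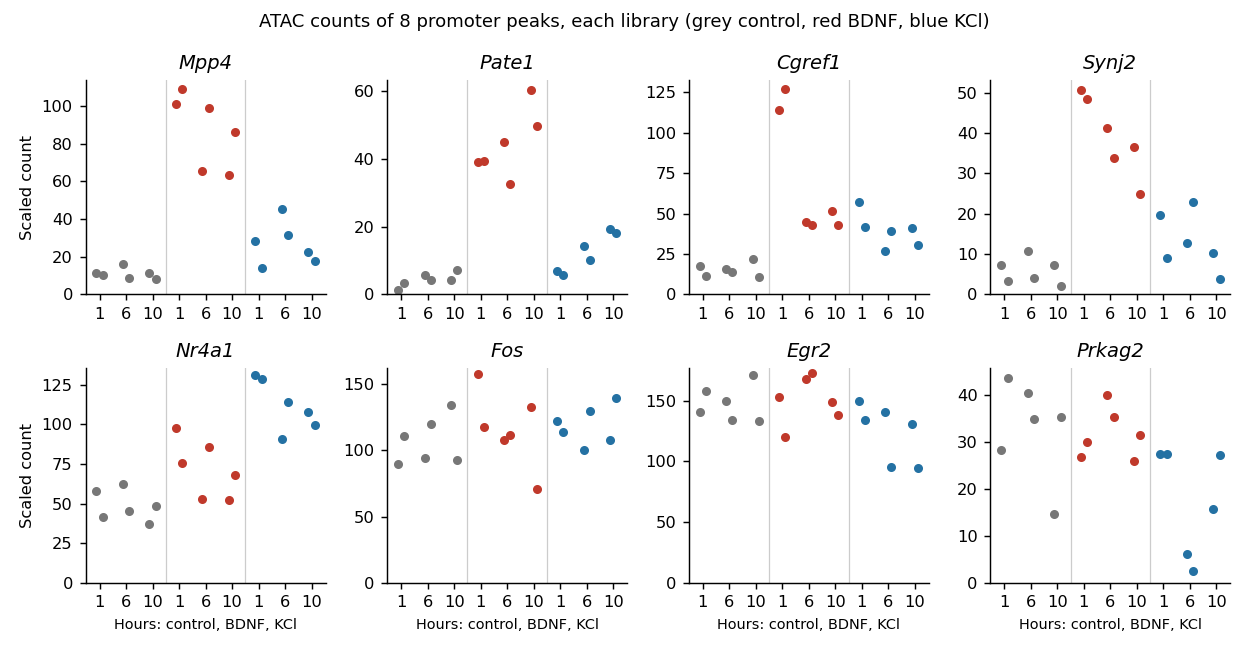
LOESS-scaled ATAC counts (y axis) of 8 promoter peaks in each of the 18 libraries (points), by hours for controls, BDNF and KCl from left to right. The BDNF points of Mpp4, Pate1, Cgref1 and Synj2 lie above all controls, Nr4a1 rises most with KCl, Fos and Egr2 stay within the spread of controls in most libraries, and Prkag2 drops at KCl 6 h.

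The promoters that closed most were picked in the same way. At BDNF 1 h the deepest was at Gprc6a, a receptor gene, where controls held 16.7 to 35.0 (median 21.6) and the BDNF libraries 9.08 and 1.4 (-2.27, SE 0.51, adjusted p = 0.0003053, edgeR), and the call was lost without library B. With KCl a fall that no left-out library removed was at an upstream promoter of Prkag2, which encodes a regulatory subunit of the energy sensor AMPK (chr5:25100643-25101263). Controls held 14.5 to 43.6 (median 35.0), and the KCl libraries held 27.3 and 27.3 at 1 h, 6.14 and 2.56 at 6 h, then 15.7 and 27.2 at 10 h. Both 6 h libraries lay below all controls and the peak was back among the controls at 10 h. The log2 fold change at 6 h was -2.66 (SE 0.5, adjusted p = 0.0001235, edgeR), with Prkag2 RNA at 713 against 844 ± 63.4 (SD, n = 6). Pak1ip1 fell further at KCl 6 h (-3.27, SE 0.78, adjusted p = 0.003308, edgeR), to 1.46 and 2.55 from 6.16 to 30.1, but not without KCl 6 h A. At KCl 10 h the promoter peak of Trim8, a ubiquitin ligase, stood at 10.4 and 5.82 against 25 to 53.2 in controls (-2.10, SE 0.43, adjusted p = 0.0002974, edgeR). Runx1t1, a corepressor gene, stood at 1.02 and 8.57 against 12.3 to 37.5 (-2.17, SE 0.54, adjusted p = 0.004751, edgeR), a call lost without KCl 10 h A. The RNA of Runx1t1 fell in all 6 comparisons, from 1229 in controls to 514 at KCl 10 h (log2 fold change -1.25, limma), while its promoter peak was called only at KCl 10 h.

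Gained promoter peaks differed from all promoter peaks in base composition. The median CpG ratio was 0.696, 0.541 and 0.657 among peaks gained with BDNF at 1, 6 and 10 h and 0.793, 0.849 and 0.801 with KCl, against 0.848 over all promoter peaks. CpG-rich promoters made up 60.3%, 44.4% and 52.3% of the gains with BDNF and 78.8%, 81.4% and 72.2% of those with KCl, beside 82.2% of all. At BDNF 1 h, 7.8% of the 2230 CpG-poor promoters were gained and 2.56% of the 10311 CpG-rich ones. With KCl at the same time the shares were 6.59% and 5.29%. These are descriptions of the called peaks, and no test was made on them.

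The AP-1 letters separated promoters further within the CpG-poor class. Of the 145 CpG-poor promoter windows with these letters, 41.4%, 25.5% and 22.1% were gained at BDNF 1, 6 and 10 h and 13.8%, 8.97% and 10.3% at KCl 1, 6 and 10 h. Of the 2085 CpG-poor windows without them, 5.47%, 2.01% and 2.97% were gained with BDNF and 6.09%, 2.01% and 2.16% with KCl. In CpG-rich promoters the letters went with less: 7.51%, 1.16% and 2.31% of 173 were gained with BDNF, beside 2.48%, 0.602% and 0.977% of the 10138 CpG-rich windows without them. Among promoters gained at least 2-fold, the letters were in 50.0%, 66% and 59.5% with BDNF and in 18.2%, 43.3% and 62.5% with KCl. The KCl share thus started lower and by 10 h stood beside that of BDNF. The KCl peaks with the letters numbered 14 of 77, 13 of 30 and 15 of 24. Their number hardly changed, and the share rose as 2-fold gains without the letters became fewer. The peaks that gained under 2-fold at KCl 6 h held them in 0.755%. A match of letters is not a bound site, and no factor was measured.

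**Figure D4:**
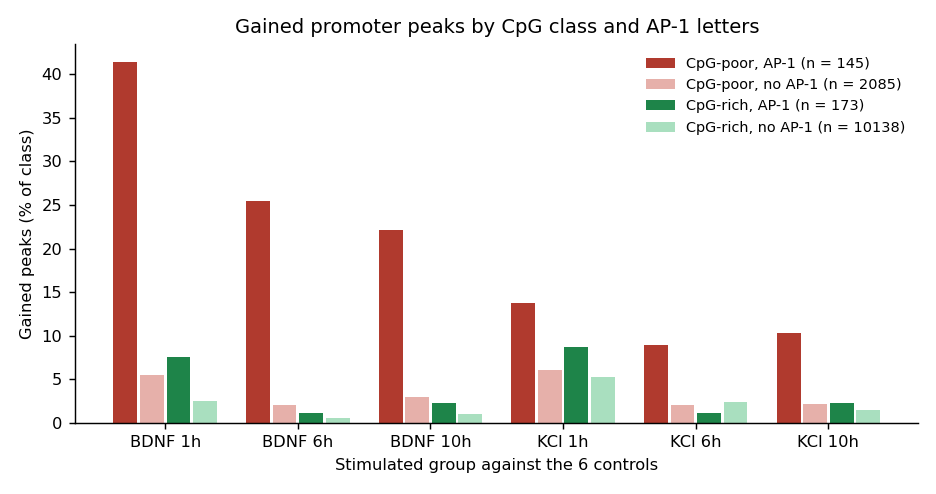
Share of promoter peaks gained (y axis, percent of the class) in each stimulated group against controls (x axis) for 4 classes of promoter by CpG content and AP-1 letters (bars). CpG-poor promoters with the letters (n = 145) reach 41.4% at BDNF 1 h, and every other class stays under 9%.

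Position went with composition. The 562 promoter peaks centred more than 500 bp upstream of the start were CpG-rich in 39.1% of cases, and 8.01% of them were gained at BDNF 1 h. Of the 9928 peaks centred within 200 bp of the start, 85.4% were CpG-rich and 2.96% were gained. At KCl 1 h the same shares were 4.8% and 5.24%. Gains of at least 2-fold were at peaks of low count, with a median of 24.9 reads at BDNF 1 h and 26.9 at KCl 1 h, against 154 and 145 for gains under 2-fold. With BDNF few of these larger gains were CpG-rich (17.6%, 4.0% and 4.76% at 1, 6 and 10 h), whereas with KCl the shares were 66.2% at 1 h (51 of 77), 20.0% at 6 h and 8.33% at 10 h. Of the 102 larger gains at BDNF 1 h, 31 (30.4%) had a nearest gene below the RNA filter, as had 5.7% of all promoter peaks.

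Promoters that closed with KCl held other letters more often than all promoters did. The shares are for promoters called with LOESS offsets and were not counted under the other scalings. The YY1 letters AAGATGGC were in 4.78% of all promoter windows, in 12.0%, 6.77% and 11.3% of those closing at KCl 1, 6 and 10 h, and in 0.867%, 2.03% and 0.926% of those gained. The ETS letters CCGGAAG were in 15.5% of all, in 20.7%, 23.1% and 23.3% of those closing with KCl, and in 8.24%, 6.1% and 8.33% of those gained. Among promoters closing with BDNF at 1, 6 and 10 h the ETS letters were in 8.02%, 10.0% and 11.7% and the YY1 letters in 6.02%, 2.73% and 3.4%. Both strands were searched, and neither set of letters contains the other or the AP-1 letters. The core of the CTCF motif was in 0.742% of all promoter windows and in 2.07%, 0.251% and 0.251% of those closing at KCl 1, 6 and 10 h. Of the 93 peaks with this core, 10 were closing at KCl 1 h (10.8%) and 1 each at 6 and 10 h. The E-box letters CACGTG were in 8.24% of all and in 10.1%, 10.8% and 15.5% of those closing with KCl. Genes whose promoters closed at KCl 1 h had a median of 586 normalised RNA counts in controls, and genes of promoters gained then had 219, beside 428 for all.

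BDNF and KCl were then compared directly at each time, since a call with one stimulus and not the other does not show a difference. At 1 h, 545 promoter peaks were higher with BDNF (4.35%, where 9.3% of all peaks were) and 612 were lower (4.88%, all peaks 5.55%). At 6 h, 250 were higher (1.99%, all peaks 2.25%) and 156 lower (1.24%, all peaks 1.37%), and at 10 h 128 were higher (1.02%, all peaks 1.16%) and 76 lower (0.606%, all peaks 0.83%). Promoters and peaks at large were thus close at 6 and 10 h. The share higher with BDNF was 47.1%, 61.6% and 62.7% with LOESS offsets and 52.9%, 89.8% and 89.0% with TMM factors. At 1 h, 502, 495, 733 and 319 peaks were called in all without BDNF A, BDNF B, KCl A and KCl B, beside 1157 with all libraries. At 6 h, 76, 152 and 100 were called without BDNF A, BDNF B and KCl B, beside 406, and at 10 h 47, 128 and 25 without BDNF A, KCl A and KCl B, beside 204.

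The peaks that differed most at 1 h were CpG-poor promoters that BDNF opened. Sprr1a, a gene of the cornified envelope of skin, held 39.8 and 32.9 scaled counts with BDNF and 5.16 and 2.33 with KCl, against 1.08 to 11.3 in controls (BDNF minus KCl 3.31, SE 0.63, adjusted p = 5.319e-05, edgeR). Erc1, a scaffold of the presynaptic active zone, held 38.9 and 36.4 and 4.27 and 3.56 at a peak 1019 bp upstream of a start (3.24, SE 0.61, adjusted p = 4.978e-05, edgeR). Both KCl 1 h libraries stayed within the range of the controls at each of these peaks. In the other direction Lhx1, a homeobox gene, held 3.49 and 6.78 with BDNF and 38.0 and 21.9 with KCl (-2.46, SE 0.59, adjusted p = 0.001954, edgeR). Hps6, which acts in the making of lysosome-related organelles, held 4.4 and 8.2 and 26.8 and 38.5 (-2.33, SE 0.56, adjusted p = 0.001797, edgeR). At 6 h the upstream promoter peak of Npas4, an activity-dependent transcription factor, held 7.42 and 4.69 with BDNF and 20.6 and 30.3 with KCl (-2.03, SE 0.59, adjusted p = 0.04899, edgeR), a call lost without any one of these 4 libraries. Npas4 RNA averaged 64.5 with BDNF and 1822 with KCl at that time. The promoter peak of Cdh7, a cadherin gene, was higher with BDNF at each time (1.64, 1.94 and 2.43, adjusted p = 0.005751, 0.04017 and 0.0175, edgeR), at 65.7 and 37.4 against 17.2 and 15.7 at 1 h and 25.6 and 28.6 against 5.13 and 4.82 at 10 h. These calls were lost without BDNF 1 h A or KCl 1 h B, without BDNF 6 h A or B or KCl 6 h A, and without BDNF 10 h B or either KCl 10 h library.

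The third question was how promoter change went with the RNA of the same gene, taken as the gene with the nearest protein-coding start. Of the 12541 peaks, 11826 had a gene in the RNA test, 10857 genes in all. Gained and closing promoters are those called with LOESS offsets. RNA change was called at an adjusted p below 0.1 by limma over 16209 genes, of which 21.3%, 22.1% and 21.1% rose and 19.0%, 21.1% and 19.5% fell with BDNF at 1, 6 and 10 h, and 26.5%, 33.4% and 29.0% rose and 28.2%, 33.1% and 28.2% fell with KCl. Of 394 pairs with a gained promoter at BDNF 1 h, the gene rose in 136 (34.5%) and fell in 62 (15.7%), while over all 11826 pairs 22.6% rose and 22.3% fell. At BDNF 6 h it rose in 42 of 114 (36.8%) and fell in 14 (12.3%), beside 23.8% and 25.7% of all pairs. At BDNF 10 h it rose in 33 of 174 (19%) and fell in 38 (21.8%), beside 22.7% and 23.4%. Gained promoters with BDNF thus had risen genes in a larger share than all promoters at 1 and 6 h and not at 10 h, and at 1 h so had closing promoters (31.5%).

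With KCl the gene rose in 164 of 631 (26.0%) and fell in 132 (20.9%) at 1 h, beside 26.0% and 30.9% of all pairs. It rose in 110 of 269 (40.9%) and fell in 83 (30.9%) at 6 h, beside 34.2% and 34.8%, and rose in 73 of 189 (38.6%) and fell in 61 (32.3%) at 10 h, beside 31.3% and 29.7%. For closing promoters the gene fell in 79 of 321 (24.6%), 33 of 101 (32.7%) and 60 of 197 (30.5%) with BDNF and in 164 of 463 (35.4%), 147 of 385 (38.2%) and 118 of 385 (30.6%) with KCl. The genes of closing promoters rose in 31.5%, 21.8% and 18.8% of these pairs with BDNF and in 24.0%, 31.4% and 28.6% with KCl, so that at BDNF 1 h more of them rose (101) than fell (79). Without RNA library A of BDNF 1 h the closing pairs with a fallen gene numbered 45, without A of BDNF 6 h 21, and without B of BDNF 10 h 28, where the gained pairs with a risen gene numbered 21. Over all 11826 pairs the log2 changes of promoter and RNA had a Pearson r of 0.044 to 0.087 in the 6 comparisons, a description across genes that share libraries. Letters of ATAC and RNA columns were not matched to each other, so pairs were compared by group.

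**Figure D5:**
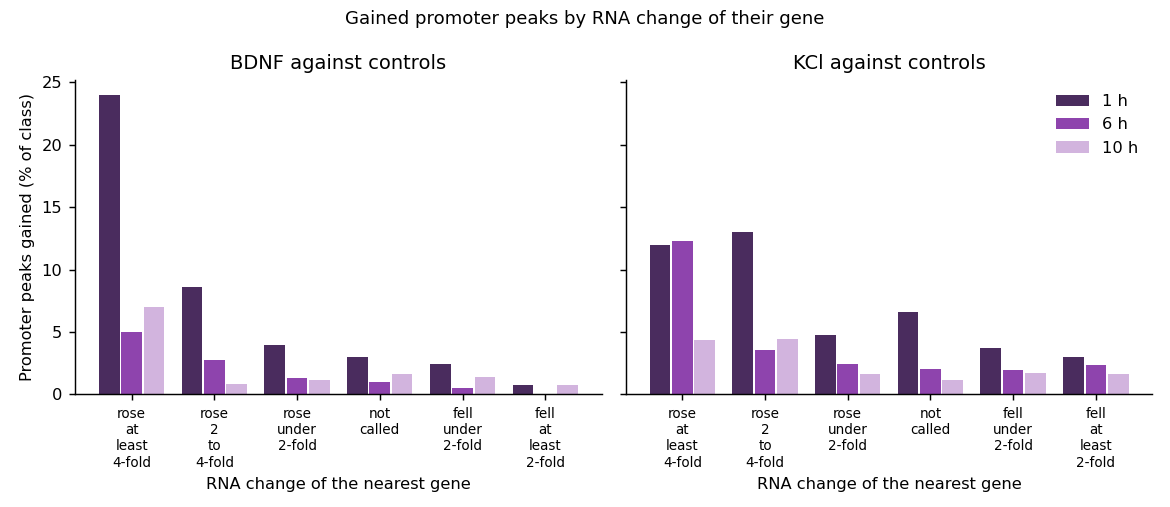
Share of promoter peaks gained (y axis, percent of the class) by the RNA change of the nearest gene (x axis, 6 classes from a rise of at least 4-fold to a fall of at least 2-fold) for BDNF and KCl at 3 times (bars). At BDNF 1 h 24.0% of promoters of genes that rose at least 4-fold were gained, and 0.746% of those of genes that fell at least 2-fold.

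Promoters of genes with the strongest RNA rise were gained most often at BDNF 1, 6 and 10 h and KCl 6 h, yet most of them were not called. At BDNF 6 and 10 h this rested on few peaks, 3 gained of 60 and 3 of 43, and at KCl 6 h on 9 of 73. Genes that rose 2 to 4-fold at BDNF 10 h had 1 gained of 115, so the shares did not fall off in steps there. Of 100 promoter peaks whose gene rose at least 4-fold at BDNF 1 h, 24 were gained (24.0%) and 1 was closing, and the median promoter log2 fold change of the class was 0.13. Genes that rose 2 to 4-fold had 8.6% gained of 221, those that rose less 3.95% of 2356, and those not called 3.01% of 6515. At KCl 1 h the class of at least 4-fold held 6 gained of 50 (12.0%), and genes that rose 2 to 4-fold held 21 of 161 (13.0%). At KCl 10 h these shares were 4.35% and 4.4%. The 607 promoter peaks of genes that fell at least 2-fold at KCl 1 h were gained in 2.97% and closing in 4.61%, close to the 3.86% of all promoters that closed.

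Promoter and transcript rose together most at a few genes. Synj2, synaptojanin 2, a lipid phosphatase of membrane traffic, had a peak over its start (chr17:5975557-5975831) with 2.04 to 10.8 scaled counts in controls (median 5.71) and 50.8 and 48.4 at BDNF 1 h, 41.3 and 33.8 at 6 h, then 36.5 and 24.9 at 10 h. Its RNA rose from 30.5 ± 5.56 (SD, n = 6) to 146, 335 and 230 normalised counts. All 6 BDNF libraries lay above every control, with a promoter log2 fold change of 3.09 at 1 h (SE 0.39, adjusted p = 7.11e-11, edgeR) and an RNA change of 2.24 at 1 h and 3.43 at 6 h (limma). With KCl the peak held 19.8 and 9.04 at 1 h and the RNA 47.0. Cgref1, a secreted protein gene, had the AP-1 letters 66 bp upstream of its start. Its peak (chr5:30945463-30945946) rose from 11 to 21.7 in controls (median 15.0) to 114 and 127 at BDNF 1 h (3.02, SE 0.25, adjusted p = 7.109e-20, edgeR), then 45.1 and 42.8 at 6 h and 51.8 and 43.0 at 10 h. KCl gave 57.1 and 41.6 at 1 h (1.71, SE 0.28), and the RNA rose from 140 to 333 with BDNF and 171 with KCl at 1 h. Serpinb8, a protease inhibitor, rose at its start from 18.6 to 33.9 in controls to 167 and 144 at BDNF 1 h (2.58, SE 0.22, adjusted p = 1.484e-19, edgeR), while its KCl 1 h libraries held 41.1 and 34.2 (0.52, adjusted p = 0.2466, edgeR). Its RNA was 34.7 at BDNF 1 h against 9.63 ± 7.71 (SD, n = 6).

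Other promoters opened while the transcript fell or stayed. Atp2b2, a plasma membrane calcium pump, gained a peak 212 bp upstream of a start, from 1.69 to 13.2 in controls to 52.2 and 55.2 at BDNF 1 h (2.37, SE 0.35, adjusted p = 1.214e-08, edgeR), while its RNA was 1220 against 1601 ± 85 (log2 fold change -0.39, limma). At BDNF 6 h the peak held 48.4 and 35.7 and the RNA stood above controls (0.39), so that the RNA changed sign while the peak stayed open. Rasgrf2, a calcium-responsive exchange factor for Ras, was another such case, with KCl. Its promoter held 71.1 to 99.2 in controls (median 77.2), 144 and 168 at KCl 1 h, 161 and 160 at 6 h, then 126 and 141 at 10 h, all above the controls. Its RNA was 336, 149 and 169 against 323 ± 17.0 (SD, n = 6), a fall at 6 h (-1.11) and 10 h (-0.93, limma). The gain at 6 h was 1.00 (SE 0.17, adjusted p = 3.079e-05, edgeR) and BDNF minus KCl was -0.84 at that time (lost without BDNF 6 h A, BDNF 6 h B or KCl 6 h A). The gain at 10 h was lost without KCl 10 h B. Zfp712, a zinc-finger gene, was gained at KCl 1 h (234 and 297 against 153 to 191, log2 fold change 0.63, lost without KCl 1 h B) while its RNA fell from 184 to 12.1 (-3.82, limma). Hcrtr2, an orexin receptor gene, showed the opposite at KCl 6 h, with 65.5 and 83.8 against 12.7 to 41.6 (1.22, SE 0.29, adjusted p = 0.004254, edgeR) and RNA of 176 against 33.7.

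Immediate early genes, which neurons transcribe first after a stimulus, showed large RNA changes over promoters whose changes were smaller in size, though a larger share of them was gained at 1 h than of all promoters. The list held 24 transcription factor genes with 28 promoter peaks, of which 5, 1 and 0 were gained at BDNF 1, 6 and 10 h and 8, 4 and 1 at KCl 1, 6 and 10 h. At 1 h this was 17.9% with BDNF and 28.6% with KCl, beside 3.49% and 5.52% of all promoter peaks, and at KCl 6 h 14.3% beside 2.35%. In RNA, 23 of the 24 genes rose at BDNF 1 h and 20 at KCl 1 h, where 21.3% and 26.5% of all genes did. The median promoter log2 fold change was 0.09 and 0.17 at 1 h with BDNF and KCl, against -0.021 and 0.0 over all promoter peaks, and 0.02 and 0.12 with TMM factors, against -0.085 and -0.07. The median RNA change of the list was 2.55 and 2.98. Fos, which encodes a partner in AP-1, held 90.1 to 134 scaled counts in controls (median 103) and 158 and 118 at BDNF 1 h (0.36, SE 0.17, adjusted p = 0.147, edgeR), and 122 and 114 at KCl 1 h (0.14). Its RNA went from 34.5 to 1727 and 5508. Egr2, a zinc-finger factor, held 133 to 171 in controls and 153 and 120 at BDNF 1 h (-0.12, SE 0.15, adjusted p = 0.6949, edgeR), and its RNA went from 11.8 to 3891. Both promoters overlapped the controls.

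Nr4a1, an orphan nuclear receptor gene, had a pair of promoter peaks that behaved differently. The one over its downstream start (chr15:101266257-101267037), with the MEF2 matches shown above, held 37.1 to 62.1 in controls (median 46.8), 97.6 and 75.9 at BDNF 1 h, and 131 and 129 at KCl 1 h. With KCl it still held 90.6 and 114 at 6 h and 108 and 99.8 at 10 h, all above the controls. The log2 fold changes were 0.82 at BDNF 1 h (SE 0.2, adjusted p = 0.001361), lost without BDNF 1 h A, and 1.41 at KCl 1 h (SE 0.19, adjusted p = 4.826e-08), and BDNF minus KCl was -0.59 (SE 0.23, adjusted p = 0.08614, edgeR), lost without any one of the 4 libraries at 1 h. Nr4a1 RNA averaged 56.5 in controls, 680 at BDNF 1 h and 7063 at KCl 1 h. The peak over the upstream start held 21.2 to 47.2 in controls, 26.8 and 37.7 at BDNF 1 h and 36.2 and 49.9 at KCl 1 h (-0.05 and 0.37), and was called at KCl 6 h (0.91, adjusted p = 0.04817, edgeR), though not without either library of that group or control 1 h B.

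Arc, a synaptic gene, was gained at its start at BDNF 1 h, with 121 and 131 against 62.2 to 116 (0.61, SE 0.18, adjusted p = 0.007915, edgeR), a call lost without BDNF 1 h B, and held 76.3 and 79.2 at KCl 1 h. Its RNA was 6359 with BDNF and 161 with KCl against 33.2 in controls. BDNF stood above KCl at this peak by 0.70 (SE 0.22, adjusted p = 0.0243, edgeR), lost without BDNF 1 h B or either KCl 1 h library. A second Arc peak, 958 bp upstream, was called at no time. The one promoter peak of Bdnf that met the rule, at chr2:109693434-109693943, held 46.1 and 42.7 at BDNF 1 h and 36.0 and 39.4 at KCl 6 h against 34.6 to 50.9 in controls, and its log2 fold changes ran from -0.24 to 0.19, while Bdnf RNA went from 58.7 to 165 and 1713. Both Npas4 peaks overlapped the controls at BDNF 1 h (-0.10 and 0.15).

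Among the other listed factors, Fosl2, Maff and Nr4a3 were gained at 1 h with at least 1 stimulus. Fosl2, a partner in AP-1, held 384 and 423 at BDNF 1 h against 266 to 301 in controls (0.53, SE 0.1, adjusted p = 7.676e-06, edgeR), and 339 and 356 at KCl 1 h (0.31, lost without either KCl 1 h library). Its RNA rose at both (2.23 and 1.60, limma), and at BDNF 6 h the promoter was called (0.26, adjusted p = 0.0941, edgeR) where the RNA change was -0.11 (adjusted p = 0.6221, limma). Nr4a3 held 290 and 307 at KCl 1 h against 175 to 235 (0.53, SE 0.11, adjusted p = 0.0008729, edgeR) and 214 and 206 at BDNF 1 h (0.02), where its RNA rose too (1.10, and 3.20 at KCl 1 h, limma), and BDNF minus KCl was -0.51 (adjusted p = 0.007226, edgeR), lost without KCl 1 h B. Maff, a small bZIP factor, held 175 and 163 at KCl 1 h against 83.5 to 123 (0.63, lost without KCl 1 h A), and was not called at BDNF 1 h (0.30, adjusted p = 0.209, edgeR), where its RNA change was 3.13.

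Of 22 activity-regulated effector genes with 26 peaks, 5, 1 and 1 peaks were gained with BDNF at 1, 6 and 10 h and 7, 1 and 0 with KCl (19.2% and 26.9% at 1 h, beside 3.49% and 5.52% of all promoters). At 1 h 21 and 19 of the genes rose in RNA with BDNF and KCl, where 21.3% and 26.5% of all genes did. Homer1, whose short form regulates postsynaptic scaffolds, went from 411 to 500 in controls to 635 and 542 at BDNF 1 h (0.36, lost without BDNF 1 h A, and 0.24 with TMM), while its RNA went from 898 to 11069. Plat, tissue plasminogen activator, was gained at all 3 BDNF times, with 186 and 160 at 1 h against 88.3 to 126 (0.68, SE 0.14, adjusted p = 8.661e-05, edgeR), and at KCl 1 h with 170 and 205 (0.81, SE 0.14). Its calls at 6 and 10 h with BDNF rested on library B and on library A. Penk, the enkephalin precursor gene, held 93.1 and 91.5 at KCl 1 h against 32.6 to 75.1 (0.88, SE 0.22, adjusted p = 0.005937, edgeR).

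Genes of the feedback on MAP kinase signalling gave 3, 1 and 2 gained promoter peaks of 11 with BDNF and 2, 1 and 0 with KCl, where 3.49%, 1.13% and 1.57%, then 5.52%, 2.35% and 1.72% of all promoter peaks were gained. Spred2, an inhibitor of Ras to ERK signalling, was gained at each BDNF time, with 277 and 244, 229 and 211, and 239 and 212 scaled counts against 127 to 176 in controls, where the call at 10 h was lost without BDNF 10 h A. The KCl libraries held 130 and 148 at 1 h, and BDNF exceeded KCl by 0.89 then (SE 0.16, adjusted p = 9.474e-06, edgeR). Its RNA rose from 821 to 2698 with BDNF and to 1006 with KCl at 1 h. Spry2, an inhibitor of the same pathway, held 404 and 354 at BDNF 1 h (0.40, lost without BDNF 1 h A) and 260 and 255 at KCl 1 h against 254 to 313 (BDNF minus KCl 0.56, SE 0.13, adjusted p = 0.001023, edgeR), while its RNA rose with both. Dusp5, an ERK phosphatase, was called at KCl 1 h alone (0.51, lost without either library), where its RNA change was 0.72, and not at BDNF 1 h, where the RNA change was 4.07 and the promoter stood at 143 and 128 against 113 to 138.

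Most promoters of ribosomal protein, proteasome and complex I genes were not called in any one comparison, while many of the genes rose in RNA. Few complex I genes rose at BDNF 1 h. None of the 73 promoter peaks of cytosolic ribosomal protein genes was gained in any comparison, and 1, 0 and 3 were closing with BDNF and 5, 6 and 4 with KCl (6.85%, 8.22% and 5.48%, beside 3.86%, 3.18% and 3.18% of all promoters). Of the 73 genes, 33, 34 and 40 rose in RNA with BDNF and 56, 67 and 58 with KCl, where 21.3%, 22.1% and 21.1%, then 26.5%, 33.4% and 29.0% of all genes did. Their median promoter log2 fold change was -0.18 at KCl 10 h, against -0.05 over all promoter peaks, and -0.30 with TMM factors, against -0.18. Rps26 was one of those closing, with 94.4 and 102 at KCl 1 h against 119 to 185 (-0.58, SE 0.16, adjusted p = 0.01317, edgeR, lost without either KCl 1 h library). Of 30 proteasome promoter peaks, 1 was gained and 1 closing at KCl 1 h, 2 were closing at 6 h and 4 at 10 h (13.3%), among them Psmb6, with 30.1 and 41.8 against 50.4 to 79.6 (-0.94, SE 0.25, lost without KCl 10 h A). Its RNA rose from 768 to 1073 there. Of 29 proteasome genes measured in RNA, 19, 25 and 28 rose with BDNF and 15, 20 and 15 with KCl. Of 27 peaks of complex I subunits, 4 were closing at KCl 1 h (14.8%), 4 at 6 h and 1 at 10 h (3.7%), and 0 with BDNF. Of the 27 genes, 3, 16 and 19 rose in RNA with BDNF and 15, 14 and 10 with KCl. The shares of all genes that rose are those given above, and at BDNF 1 h complex I lay below them (21.3%). Ndufa4 held 159 and 150 at KCl 6 h against 212 to 247 (-0.59, SE 0.14, adjusted p = 0.002512, edgeR, lost without KCl 6 h A), and Ndufa3 101 and 88.8 at KCl 1 h against 119 to 178 (-0.69, SE 0.15, lost without KCl 1 h B).

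Zinc-finger genes named Zfp were the largest list, with 337 promoter peaks of 319 genes. Their RNA fell in 173, 81 and 99 of 314 measured genes with BDNF and in 250, 187 and 148 with KCl. Of all genes tested, 19.0%, 21.1% and 19.5% fell with BDNF and 28.2%, 33.1% and 28.2% with KCl. The median RNA change of the list was -0.80 at KCl 1 h and -0.12 at BDNF 6 h. Their promoters were closing in 11, 2 and 5 cases with BDNF (3.26%, 0.593% and 1.48%, beside 2.78%, 0.877% and 1.64% of all promoters). With KCl 19, 18 and 13 were closing (5.64%, 5.34% and 3.86%, beside 3.86%, 3.18% and 3.18%). With BDNF 11, 6 and 18 were gained (3.26%, 1.78% and 5.34%, beside 3.49%, 1.13% and 1.57% of all promoters). With KCl 5, 2 and 2 were gained (1.48%, 0.593% and 0.593%, beside 5.52%, 2.35% and 1.72%). At KCl 1 h their median promoter change was -0.10. Zfp219 held 210 and 225 at KCl 1 h against 308 to 363 (-0.61, SE 0.11, adjusted p = 4.21e-05, edgeR) and 401 and 368 with BDNF, a difference of 0.82 (SE 0.13, adjusted p = 4.804e-07, edgeR). The strong peak of Zfp317 fell at KCl 6 h, from 885 to 1137 to 701 and 731 (-0.49, SE 0.09, adjusted p = 3.079e-05, edgeR).

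Of 38 promoter peaks of voltage-gated potassium channel genes, 3 were gained and 0 closing at BDNF 1 h, and 3 were gained and 1 closing at KCl 1 h (7.89% gained at each, beside 3.49% and 5.52% of all promoters). Kcna1 held 144 and 147 at KCl 1 h against 78.5 to 97.7 (0.73, SE 0.16, adjusted p = 0.001759, edgeR), where its RNA change was 0.74, and 110 and 107 at BDNF 1 h (0.30, adjusted p = 0.2713, edgeR), where its RNA change was 3.38. BDNF minus KCl at this peak was -0.42 (SE 0.2, adjusted p = 0.1654, edgeR), so that a difference between the stimuli was not shown. Of 4 clustered protocadherin peaks 1 was closing at KCl 1 h, where 3.86% of all promoters were. Of 10 promoter peaks of glial and other markers, 2 were gained at BDNF 1 h (Aqp4 and Vim), where 3.49% of all promoters were. At KCl 1 h 1 was gained, where 5.52% of all were. This was Slc1a3, at 74.6 and 103 against 36.3 to 49.9 (1.07, SE 0.22, adjusted p = 0.0006795, edgeR, lost without KCl 1 h B), with an RNA change of 0.16 (adjusted p = 0.1601, limma). At BDNF 6 and 10 h 1 of the 10 was gained, beside 1.13% and 1.57% of all promoters. It was Aqp4 (2.15 and 2.43, edgeR, lost without library A of either time), while its RNA fell (-0.85 at both, limma). Of 18 promoter peaks of neuronal markers, 1 was gained and 1 closing, both at BDNF 10 h (1.57% and 1.64% of all promoters).

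Genes with more than 1 promoter peak were counted by how many of their peaks were called. Since 3.49% and 5.52% of all promoter peaks were gained at BDNF 1 h and KCl 1 h, few genes with all peaks gained would occur in any case. The counts are therefore a description only. Of the 1037 such genes, 119 had some peaks gained and the rest not called at BDNF 1 h, 2 had all gained and 3 had a gained and a closing peak, and at KCl 1 h the counts were 122, 4 and 2. The genes with peaks called in opposite directions were Fbxw7, Mast4 and Bbof1 at BDNF 1 h, Col5a2 at BDNF 6 h, Celf2 at BDNF 10 h, Mcf2l and Gramd1b at KCl 1 h, Prkag2 and Elmo1 at KCl 6 h, and Klhl13 at KCl 10 h. These were listed after their values were seen. At Celf2, an RNA-binding protein gene, 1 peak stood at 0.78 (adjusted p = 0.000983) and the other at -1.24 (adjusted p = 0.0749, edgeR). At Elmo1, a regulator of Rac, they stood at 0.60 (adjusted p = 0.00358) and -1.32 (adjusted p = 0.0514, edgeR).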

How the data were processed

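The members, gene lists and motifs were chosen with earlier results of these data known. The deposited ATAC values were taken as raw counts, although the table is called normalised, because they are whole numbers with a floor of 1 and library totals that differ, and no source used here settles this. The authors made these counts with DiffBind over consensus peaks of MACS2 from Bowtie2 alignments (mm10). For RNA, the authors aligned reads with TopHat2 (GENCODE M16), and the deposited signal is gene counts divided by a DESeq2 size factor by the authors. Every value was a whole multiple of its column's step within 0.01, which gave the depth. Trimmomatic and DESeq2 are also named in the submitters' notes. The authors' deposited tables of fold changes (log2), scores and p-values were not used. Groups came from the labels.

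Promoter windows came from GENCODE M21 basic. ATAC counts of all 56383 peaks with a mean of at least 10 were tested with edgeR 4.0.16 (quasi-likelihood, robust) with LOESS offsets in a model of 7 levels (3 BDNF, 3 KCl, pooled controls). RNA was tested with limma 3.58.1 (trend, robust) on log2(value + 1), which understates changes of low genes, over genes with a mean of at least 10. Calls are at a Benjamini-Hochberg adjusted p below 0.1, two-sided. The SE of an edgeR fold change is its size over the root of its F statistic. Both fits were also run on simulated counts with known changes at features drawn at random in BDNF 1 h. Those counts held no shift of promoters against other peaks, so they do not bear on the choice of scaling. On the recovered reads edgeR called 6480, 7152, 6683, 8802, 10791 and 9166 genes in the order BDNF then KCl at 1, 6 and 10 h, beside 6546, 7014, 6583, 8863, 10779 and 9274 with limma. Depth limits the low peaks, whose counting error adds to the spread between replicates. Named peaks are, per comparison, the 5 largest gains and 3 largest falls with both libraries beyond all 6 controls, the 3 largest and 3 smallest direct differences, the 3 largest gains whose gene rose and fell, up to 4 members per list, and 6 fixed genes. Alternatives were other scalings, DESeq2 1.42.0, thresholds, filters, controls of the same time, promoter and gene definitions, and each library left out. Motif counts are over the central 300 bp, both strands.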

Additional observations from a re-analysis of the deposited data

Results flagged for a closer look

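Among the 6 controls, 1 library stood apart by Dixon's test at 7 of the 106 named promoter peaks, where chance gives about 1 in 20. The outlying scaled counts were 6.64 at Rrh, 1.69 at Atp2b2 and 8.45 at Peg12. They were 22.4 at Syt11, 19.6 at Toporsl, 26.5 at Ptx3 and 315 at Rpl27a. The effects of BDNF and KCl on promoter peaks differed by the test of the difference itself at 1157 peaks at 1 h, 406 at 6 h and 204 at 10 h (edgeR, adjusted p below 0.1).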

How the results depend on the processing

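Over gained and closing counts of the 6 comparisons with controls (in the order BDNF 1, 6 and 10 h, then KCl 1, 6 and 10 h), the scaling and the threshold moved most. Gained counts were 297, 122, 115, 574, 148 and 106 with TMM, 284, 98, 90, 526, 118 and 86 with DESeq2 size factors, and 206, 77, 66, 380, 66 and 48 with TMM of the peaks outside promoters. Closing counts were 805, 175, 497, 1384, 1440 and 2218, then 905, 300, 861, 1571, 1854 and 2909, then 2325, 772, 2400, 2260, 3222 and 5381. With an adjusted p below 0.01 gained counts were 179, 46, 46, 187, 61 and 53, closing counts 52, 8, 18, 84, 88 and 53, and direct differences 268, 48 and 20. With controls of the same time alone, gained counts were 92 and 81 at BDNF 6 and 10 h and 373, 135 and 130 with KCl, and closing counts 196, 68, 103, 180, 213 and 240. Direct differences at 6 and 10 h were 842 and 480 with TMM, 911 and 491 with DESeq2 size factors, and 235 and 133 with the DESeq2 Wald test. Leaving out 1 library gave 202 to 428, 57 to 150, 67 to 212, 179 to 656, 88 to 294 and 75 to 225 gained and 125 to 381, 30 to 118, 87 to 226, 100 to 458, 144 to 394 and 122 to 407 closing peaks, and 319 to 733, 76 to 283 and 25 to 151 direct differences. The share of reads then ranged from -3.0 to -2.55 for BDNF minus control, -4.64 to -4.0 for KCl minus control and 1.22 to 1.85 for BDNF minus KCl. Closing pairs with a fallen gene ranged from 45 to 79 at BDNF 1 h, 21 to 34 at 6 h and 28 to 61 at 10 h, and gained pairs with a risen gene at BDNF 10 h from 21 to 35. No filter on the mean count, the peak midpoint in the window, the RNA alternatives and every gene of a peak moved no count by over 1.5 times. Of 140 calls at named peaks, 9 were lost with TMM, 8 with DESeq2 size factors and 5 with the Wald test, and 36 of 122 with controls of the same time. Zfp960 at KCl 10 h changed sign with TMM of the peaks outside promoters (-0.02). The cause was not tested.

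No paired analysis was possible because the ATAC columns carry no replicate numbers. RNA letters did not pair the samples (36 pairs, r -0.31 to 0.42, 13 over 0.1), and with the RNA letter as a replicate block the gained pairs with a risen gene were 139, 43, 34, 173, 111 and 75 and the closing pairs with a fallen gene 80, 34, 60, 164, 149 and 123. It changed none of these by over 1.5 times. With 2 libraries per stimulated group and 1.24 M reads in the shallowest, small changes at low peaks were not detectable.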
